A study of Mus musculus with 4 samples.

Results

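STAT3 and the cytokine receptors that feed it were followed through 10 genes of the lumbar spinal cord: the receptor genes Il6st, Osmr, Lifr, Il6ra, Il10ra and Il4ra, the kinase Jak2, the transcription factor Stat3, and the inhibitors Socs3 and Socs1. The genes were taken by name from a table of 18674 gene names, in which all 10 were present in 14 rows, and the rows of a name were averaged. The lumbar cords came from wild type (WT) mice and from ALS (G93A) transgenic mice, which carry a mutant human SOD1 gene as a model of amyotrophic lateral sclerosis. The transgenic line is the high-expresser G93A H1, bred with females of a B6/SJLF1 background, and males were used for treatment according to the methods. Mice of either genotype received spermidine (SD, a natural polyamine) or PBS as vehicle, per the labels 4 times a week for 30 days, and were killed at 100 days of age. The methods name intraperitoneal injection for SD, in their account of the treatment in general. Each condition was 1 library, and the number of mice behind a library is not given in the sources used here, so the spread between mice of a group is unknown and no p-value is given. The 4 libraries were close in depth, at an estimated 36800000 to 38600000 counted fragments (reads or read pairs). Levels are in RPKM (read counts divided by transcript length and library size), so genes of different length can be compared.

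Cytokines of the interleukin-6 family share the signalling receptor gp130, the product of Il6st, which pairs with a second chain that sets which cytokine is bound. The bound receptors bring Janus kinases (Jak) together, which phosphorylate STAT3, and STAT3 then enters the nucleus and induces genes such as Socs3. SOCS proteins close the loop by blocking the kinases or the receptors. In the spinal cord, STAT3 is best known as an activator of reactive astrocytes, while the receptors for interleukin-10 and interleukin-4 are known mainly from microglia and other myeloid cells, where the latter acts through STAT6.

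Most of these genes were higher in G93A cord, and the spread between them was wide. Between the vehicle libraries, 7 of the 10 genes were at least 1.5-fold higher in G93A and 0 were at least 1.5-fold lower. Over all gene names, 20.3% were at least 1.5-fold higher and 10.3% at least 1.5-fold lower. The median fold was 2.35 over the 10 genes and 1.05 over all names. Of the 10 genes, 9 had a mean of at least 1 RPKM over the libraries, Socs1 being the exception, and among all names at that level 13.5% were higher and 4.68% lower. Under SD the count was again 7 of 10 higher and 0 lower, with a median of 2.42, beside 23.2% higher and 12.5% lower over all names in G93A + SD against WT + SD, and 16.3% and 8.12% over names with a mean of at least 1 RPKM. These counts of 7 do not hold the same genes, since Socs1 was called in the vehicle pair and Il6st in the SD pair. The largest differences were those of Socs3 and Osmr, and Lifr was the 1 gene of the 10 with lower values in both G93A libraries.

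**Figure D1:**
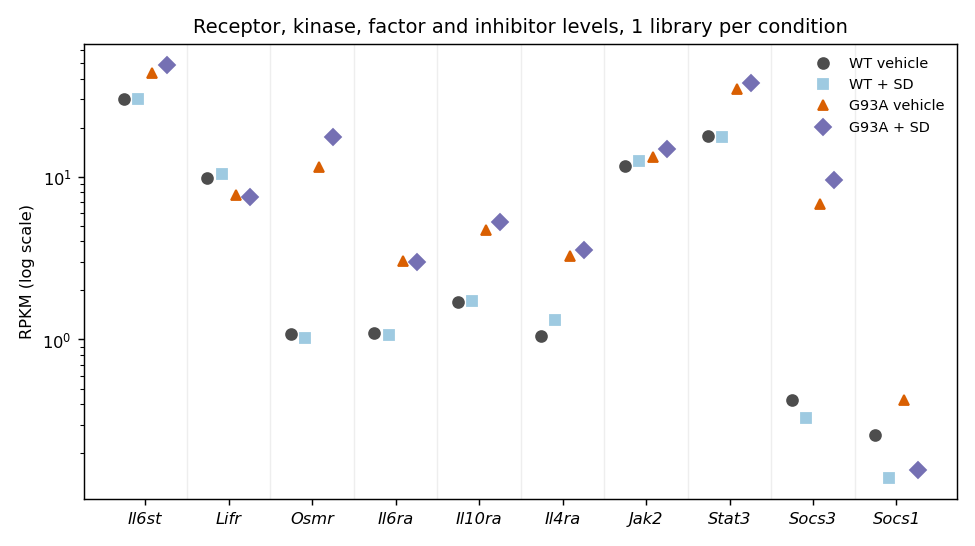
RPKM (log axis) of the 10 genes in each of the 4 libraries, with 1 point per library and no error bars because each condition is 1 library. For Osmr, Il6ra, Il10ra, Il4ra, Stat3 and Socs3 both G93A libraries lie far above both WT libraries, whereas Jak2 hardly moves and both Lifr points of G93A lie below those of WT.

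Among the receptors, the common chain Il6st had the highest level in every library. Il6st stood at 30.2 RPKM in WT vehicle, 30.0 RPKM in WT + SD, 43.0 RPKM in G93A vehicle and 48.7 RPKM in G93A + SD. The WT libraries were nearly equal and both G93A libraries lay above them. The fold was 1.42 between the vehicle libraries, just under the threshold, and 1.63 between the SD libraries, just over it. In GRCm38 with the GENCODE M21 annotation, which gives the positions of all genes here, Il6st occupies bases 112464070 to 112510086 of chromosome 13 (plus strand), and no other annotated gene overlaps it.

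Osmr encodes the chain that pairs with gp130 to bind oncostatin M. Osmr measured 1.08 RPKM in WT vehicle, 1.02 RPKM in WT + SD, 11.5 RPKM in G93A vehicle and 17.4 RPKM in G93A + SD. Both G93A libraries were far above both WT libraries, by 10.6-fold between the vehicle libraries and 17.1-fold between the SD libraries. Ordered by fold from the highest, Osmr stood at place 85 of the 12987 names averaging at least 1 RPKM in the vehicle pair and at place 75 in the SD pair. The gene lies on chromosome 15 from 6813577 to 6874969 on the minus strand. About 218 fragments were estimated behind its value in WT vehicle and 2390 behind that in G93A vehicle.

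Lifr encodes the chain that pairs with gp130 to bind leukaemia inhibitory factor, and it neighbours Osmr on chromosome 15 (7090614 to 7197489, plus strand). Its mean over 2 rows was 9.81 RPKM in WT vehicle, 10.4 RPKM in WT + SD, 7.72 RPKM in G93A vehicle and 7.49 RPKM in G93A + SD. The G93A libraries were both below the WT libraries, with folds of 0.787 and 0.718 that did not reach the threshold. The rows of Lifr differed in size of change. The row paired with a transcript of 2844 bases and 17 exons went from 6.28 to 4.17 RPKM between the vehicle libraries, a fold of 0.664, and from 6.67 to 4.05 RPKM between the SD libraries, a fold of 0.606. The row paired with a transcript of 3392 bases and 20 exons stood at 13.3 and 11.3 RPKM in WT and G93A vehicle, a fold of 0.845. The first row by itself passes 1.5-fold in the lower direction, and the rows are transcripts of 1 gene, so they are not independent. Of the 2792 windows of 53 bases in the shorter transcript, 19 are also found in Mrpl10, Rasa2 or Zfp287, and the assignment of such reads is not stated. Markers of several cell types were lower along with Lifr. The 4 neuronal markers in the table (of 6 listed) summed to 1730 and 1720 RPKM in WT (vehicle, then SD) and to 1130 and 975 RPKM in G93A, mostly from Snap25, the 1 marker of the 4 called lower between the vehicle libraries. The 6 motor neuron markers summed to 79.1 and 71.9 RPKM in WT and to 60.3 and 44.2 RPKM in G93A, with 3 of 6 lower between the vehicle libraries. For 6 oligodendrocyte markers the sums were 8810 and 9070 RPKM in WT and 7170 and 6570 RPKM in G93A, with 0 of 6 called under vehicle. The part of these markers in the values of Lifr was not tested.

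The order of the receptor chains therefore differed between genotypes. In WT vehicle the level of Osmr was 0.110 times that of Lifr, and in WT + SD 0.0975 times. In G93A vehicle Osmr was at 1.48 times the level of Lifr, and in G93A + SD at 2.32 times. These ratios use the mean of the Lifr rows. Beside the higher Lifr row alone, Osmr was nearly level in G93A vehicle, at 11.45 against 11.27 RPKM. Set against the common chain, Il6st was 28.0 times as high as Osmr in WT vehicle and 3.75 times as high in G93A vehicle.

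Il6ra encodes the chain that binds interleukin-6 itself, and its deposited values were lower than those of Il6st in every library. They were 1.10 RPKM in WT vehicle, 1.06 RPKM in WT + SD, 3.03 RPKM in G93A vehicle and 3.0 RPKM in G93A + SD. Within each genotype the libraries were nearly equal, and the G93A libraries were 2.77-fold and 2.83-fold above WT under vehicle and SD. The gene is on chromosome 3 from 89864059 to 89913196 on the minus strand. An antisense gene, Gm42809, overlaps its start, and reads in that overlap cannot be assigned, because strand use in the counting is not stated.

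The receptor chains for interleukin-10 and interleukin-4 were also higher in G93A cord, by similar folds. Il10ra, on chromosome 9 from 45253837 to 45269149 (minus strand), measured 1.69 RPKM in WT vehicle, 1.72 RPKM in WT + SD, 4.71 RPKM in G93A vehicle and 5.23 RPKM in G93A + SD. The folds were 2.79 under vehicle and 3.05 under SD. Il4ra, on chromosome 7 from 125552120 to 125579474 (plus strand), measured 1.05 RPKM in WT vehicle, 1.31 RPKM in WT + SD, 3.27 RPKM in G93A vehicle and 3.56 RPKM in G93A + SD. The folds were 3.10 and 2.71, and the WT libraries themselves differed by 1.24-fold. An antisense gene, Gm44876, lies within Il4ra, and a pseudogene and a microRNA gene lie within Il10ra. In the vehicle pair the folds of Il6ra, Il10ra and Il4ra lay between 2.77 and 3.10.

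Microglial markers moved with these 3 receptors. Of 8 microglial markers, 7 were at least 1.5-fold higher in G93A vehicle, with a median fold of 3.62, and P2ry12 was not, and under SD it was again 7 of 8. Their summed level was 135 RPKM in WT vehicle, 128 RPKM in WT + SD, 538 RPKM in G93A vehicle and 563 RPKM in G93A + SD. Of 7 astrocyte markers, 5 were higher under vehicle, with a median of 2.0, and 6 under SD, with a median of 2.45. Slc1a2 was called in neither pair and Gja1 under SD alone. The 7 astrocyte markers summed to 996 and 935 RPKM in the WT libraries and to 3080 and 3660 RPKM in the G93A libraries. Of this, Gfap gave 441 and 386 RPKM in WT and 2269 and 2707 RPKM in G93A. Markers of monocytes and neutrophils were low, at a sum of 0.929 to 2.46 RPKM over 5 genes. Of these, 4 were higher and 1 lower in G93A under vehicle, and 0 were higher and 1 lower under SD. The 6 T cell markers summed to 0.203 to 0.843 RPKM, with 3 of them listed at 0 in WT vehicle, and 6 of 6 were higher in G93A under vehicle and 4 of 6 under SD. In whole cord, more cells of a type and more RNA of a gene per cell cannot be told apart. The part of the cell markers in the differences of Il6ra, Il10ra, Il4ra, Osmr, Stat3 and Socs3 was not tested.

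**Figure D2:**
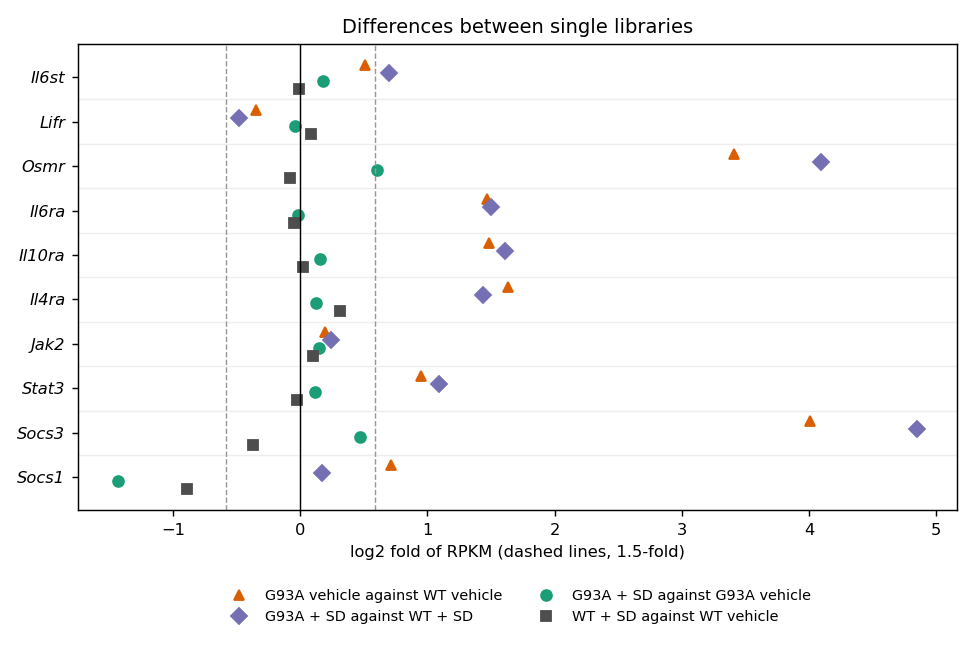
The log2 fold of RPKM for each gene in the 4 comparisons between single libraries, with dashed lines at 1.5-fold in either direction. Symbols of both genotype comparisons lie to the right for Osmr and Socs3, at log2 values of 3.41 to 4.85, and the SD comparisons lie between the dashed lines except for Osmr in G93A and for Socs1.

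Downstream of the receptors, Jak2 hardly differed. Jak2 encodes the kinase that binds gp130 among other receptors, and occupies bases 29251828 to 29313080 of chromosome 19 (plus strand). Its level was 11.6 RPKM in WT vehicle, 12.4 RPKM in WT + SD, 13.2 RPKM in G93A vehicle and 14.7 RPKM in G93A + SD. The folds were 1.14 under vehicle and 1.18 under SD, and its 2 rows gave the same folds. Of the other Janus kinases, Jak1 was the highest, at 42.3 RPKM in the WT and 38.6 RPKM in the G93A vehicle library, with a fold of 0.912. Jak3, a kinase of blood cells that shares its strand with an overlapping gene, Insl3, was 1.86-fold higher, from 1.19 to 2.22 RPKM, and was the 1 gene of the 4 kinases past the threshold. Tyk2 had a fold of 1.30.

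Stat3 itself was higher in G93A. Stat3 measured 17.8 RPKM in WT vehicle, 17.6 RPKM in WT + SD, 34.5 RPKM in G93A vehicle and 37.4 RPKM in G93A + SD. The WT libraries were nearly equal and the G93A libraries were both higher, with folds of 1.93 and 2.13. Its 3 rows were near-equal in level and each gave a fold of 1.93 in the vehicle pair. Stat3 is on chromosome 11 from 100885098 to 100939540 on the minus strand, and its end overlaps that of Stat5a on the opposite strand. Among the 7 Stat genes, Stat3 was the highest in each library. Stat6, the factor used by the interleukin-4 receptor, had a larger fold than Stat3, 2.59, from 1.69 to 4.37 RPKM, and overlaps Nab2 on the opposite strand. Stat5a was 1.51-fold higher, from 1.19 to 1.80 RPKM, while Stat2 and Stat5b had folds of 1.19 and 1.06. Stat4, at 0.0264 and 0.0636 RPKM, was also called higher, so that 4 of the 7 passed the threshold and 0 were lower.

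The inhibitor Socs3 had the largest fold of the 10 genes in both genotype comparisons, without a pseudocount. Socs3 measured 0.424 RPKM in WT vehicle, 0.328 RPKM in WT + SD, 6.82 RPKM in G93A vehicle and 9.47 RPKM in G93A + SD. Both G93A libraries lay far above both WT libraries, with folds of 16.1 under vehicle and 28.9 under SD. Names averaging at least 1 RPKM were ordered by fold from the highest. Socs3 stood at place 58 in the vehicle pair and at place 46 in the SD pair. It entered that order only through its G93A values, since both WT values were below 1 RPKM. In the WT libraries its values came from an estimated 39.8 and 32.0 fragments, and in the G93A libraries from 661 and 933. The fold thus has a small WT count below it. With a pseudocount of 1 RPKM the folds of Socs3 were 5.49 under vehicle and 7.88 under SD. Those of Osmr were then larger, at 6 and 9.13. The level of Socs3 was 0.0238 times that of Stat3 in WT vehicle and 0.198 times in G93A vehicle.

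Socs3 lies on chromosome 11 from 117966079 to 117970047 on the minus strand. The sequences before the starts of Socs3 and Osmr are shown because these genes had the largest differences and because STAT proteins bind palindromes of the form TTCNNNGAA. The 250 bases before each RefSeq start (GRCm38.p6, minus strand) are written 5′ to 3′, in lower case, with a match to TTCNNNGAA in capitals. They are chr11:117969367-117969616 for Socs3 and chr15:6874314-6874563 for Osmr. Both RefSeq starts lie inside the GENCODE span of the gene, and each stretch falls within the annotated gene.
Socs3: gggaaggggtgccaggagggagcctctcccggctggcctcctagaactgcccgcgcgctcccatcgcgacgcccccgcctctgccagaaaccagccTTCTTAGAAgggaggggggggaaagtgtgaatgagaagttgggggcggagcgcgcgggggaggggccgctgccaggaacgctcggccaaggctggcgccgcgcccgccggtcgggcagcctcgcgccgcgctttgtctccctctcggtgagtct
Osmr: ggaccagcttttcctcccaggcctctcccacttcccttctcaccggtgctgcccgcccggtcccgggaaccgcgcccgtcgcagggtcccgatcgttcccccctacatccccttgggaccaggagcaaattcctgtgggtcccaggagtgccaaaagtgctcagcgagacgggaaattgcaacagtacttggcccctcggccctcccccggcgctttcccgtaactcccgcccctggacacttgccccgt

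Of the 10 genes, 9 had a window in the RefSeq promoter table and Il10ra did not, and Lifr had 2 windows. Windows of 300 bases, from 250 before to 50 after the start, were searched for TTCNNNGAA, for its narrower form TTCCNGGAA, and for TTC and GAA parted by 4 bases of any kind, the spacing known for STAT6. The patterns read the same on both strands, and TTCCNGGAA is contained in TTCNNNGAA. The 1 match was TTCTTAGAA in Socs3, at chr11:117969512-117969520, at position -154 from the start. Thus 1 of 10 windows held TTCNNNGAA, beside 8.30% of all 32851 windows in the table. The 10 windows held 0 matches to TTCCNGGAA and 0 to the form with 4 bases between, beside 1.15% and 6.95% of all windows. A match is a run of letters and not a measured site, and these windows leave out any more distant element.

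Socs1, which is known best as an inhibitor of interferon signalling, did not follow the order of the libraries seen for Socs3. Socs1 measured 0.261 RPKM in WT vehicle, 0.141 RPKM in WT + SD, 0.428 RPKM in G93A vehicle and 0.159 RPKM in G93A + SD. The vehicle libraries were each above both SD libraries, and G93A vehicle was the highest. G93A was 1.64-fold above WT under vehicle and 1.13-fold above it under SD. All of these values came from an estimated 15.0 to 45.3 fragments, so differences between them are poorly determined. Socs1 is on chromosome 16 from 10782240 to 10785536 on the minus strand. In G93A vehicle the level of Socs3 was 15.9 times that of Socs1, and in WT vehicle 1.62 times.

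The remaining genes of the Socs family differed less than Socs3. Of the 8 Socs and Cish genes, 3 were at least 1.5-fold higher in G93A vehicle and 0 lower: Socs3, Socs1 and Socs6, which went from 3.66 to 5.59 RPKM (1.53-fold). Socs2 had a fold of 1.41, and Socs4, Socs7, Cish and Socs5 had folds of 1.29, 1.09, 1.06 and 1.0. Under SD 3 of the 8 were higher and 0 lower: Socs3, Socs6 (1.96-fold) and Socs2 (1.57-fold). Among 9 Pias proteins and phosphatases that limit Jak and STAT signalling, 3 were higher in G93A vehicle and 0 lower. These were Ptprc (CD45), a pan-leukocyte gene, from 0.909 to 7.40 RPKM, Ptpn6 (SHP-1), the phosphatase of blood cells, from 1.46 to 8.68 RPKM, and Ptpn1, from 5.69 to 9.13 RPKM. The 4 Pias genes had folds of 0.869 to 1.18.

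The ligands of gp130 receptors were higher in G93A vehicle, although most were low. All 8 cytokine genes on the list for this family were at least 1.5-fold above WT vehicle, with a median fold of 3.27. Cntf, ciliary neurotrophic factor, had the highest level, with 4.23 RPKM in WT vehicle, 4.05 RPKM in WT + SD, 15.3 RPKM in G93A vehicle and 19.4 RPKM in G93A + SD. It lies within Zfp91 on the same strand, so that its reads may partly be those of Zfp91 transcripts. Clcf1, which overlaps another gene on its own strand, went from 0.902 to 2.50 RPKM and Ctf1 (cardiotrophin-1) from 0.635 to 1.51 RPKM. Osm, the ligand of the Osmr chain, went from 0.0285 to 0.601 RPKM, and Lif from 0.166 to 0.843 RPKM. Il6 was listed at 0.0495 and 0.145 RPKM and Il11 at 0.182 and 0.347 RPKM. Under SD 7 of the 8 were higher in G93A and Il11, at a fold of 0.871, was not. Lif and Clcf1 differed between the WT libraries too, at 0.166 and 0.0402 RPKM for Lif and 0.902 and 0.253 RPKM for Clcf1, so that their folds depend on the WT library used.

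The co-receptors of these ligands did not all move with them. Cntfr, the binding chain for CNTF, stood at 25.7 RPKM in the WT and 22.1 RPKM in the G93A vehicle library, a fold of 0.861. Il11ra1 had 9.49 and 13.6 RPKM, a fold of 1.43, and its level is uncertain because it overlaps 6 annotated genes. In all, 3 of 7 gp130 co-receptors were at least 1.5-fold higher in G93A vehicle and 0 were lower. By contrast, all 5 chains of the receptors for interleukin-10 and interleukin-4 were higher. Besides Il10ra and Il4ra these were Il2rg, from 0.493 to 3.07 RPKM, Il13ra1, from 2.10 to 6.99 RPKM, and Il10rb, from 4.15 to 12.5 RPKM. Other annotated coding genes, Gm20489 and Gm21970, overlap Il2rg and Il10rb on the same strand. The cytokines themselves were at or near 0: Il10 was listed at 0 in each library but G93A vehicle, where it was 0.00634 RPKM, Il13 was listed at 0 in each library but WT vehicle, where it was 0.0113 RPKM, and Il4 reached at most 0.0635 RPKM.

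**Figure D3:**
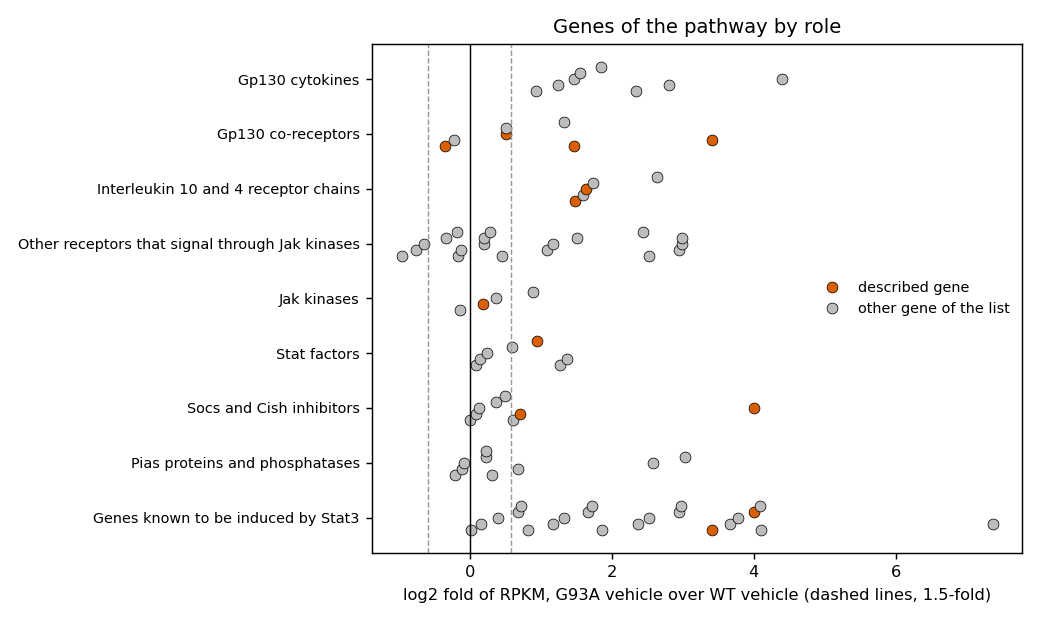
The log2 fold of RPKM in G93A vehicle over WT vehicle for genes of the pathway, grouped by role, with the described genes in orange, other genes in grey and dashed lines at 1.5-fold. All 8 gp130 cytokines lie right of the 1.5-fold line, whereas 1 of 4 Jak kinases, 4 of 7 Stat factors and 3 of 8 Socs and Cish genes do. Genes listed at 0 in either library have no point, and points are offset vertically for display.

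Genes known to be induced by STAT3 were also examined. Of 22 such genes, 19 were at least 1.5-fold higher in G93A vehicle and 0 lower, with a median fold of 4.39, and without Socs3 and Osmr it was 17 of 20, with a median of 3.46. Timp1, an inhibitor of metalloproteinases, went from 0.185 to 30.6 RPKM. Bcl3 went from 0.323 to 5.54 RPKM and the transcription factor gene Cebpd from 0.608 to 8.35 RPKM. Serpina3n, a secreted protease inhibitor of reactive astrocytes, went from 27.9 to 473 RPKM. The 3 genes that were not called were Pim1, Pim3 and Bcl2l1, with folds of 1.31, 1.01 and 1.12. Timp1 lies within Syn1, and Bcl3, Cebpd and Fgl2 overlap other genes on the opposite strand, so with strand use not stated their values may hold reads of these. Many of these genes are also used as markers of reactive astrocytes or are induced by other factors, and they were listed with earlier results of these data known, so the count is no measure of STAT3 activity.

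Both genotype comparisons use different libraries, and the values of the 10 genes are set side by side in the plot of both pairs. Each of the 10 genes lay on the same side of equal expression in both pairs, Jak2 only just, at folds of 1.14 and 1.18. The share of all names that do so was not derived, so this cannot be read as particular to the 10 genes. Socs3 and Osmr had larger folds in the SD pair, and Socs1 and Il4ra smaller ones.

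**Figure D4:**
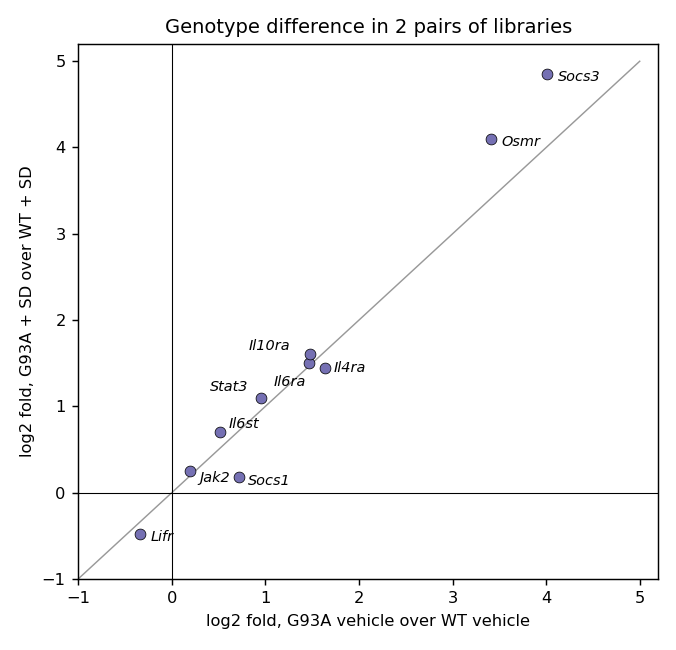
The log2 fold of G93A over WT for the 10 genes in the vehicle pair (x axis) and in the SD pair (y axis), with a line of equal folds. Lifr lies at -0.35 and -0.48, Stat3 at 0.95 and 1.09 and Socs1, below the line, at 0.71 and 0.18, while Osmr and Socs3 lie above it.

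Between the G93A libraries 8 of the 10 genes lay within 1.5-fold. In G93A + SD against G93A vehicle, 1 gene was at least 1.5-fold higher and 1 lower, beside 8.71% higher and 7.31% lower over all names, so that the share of the 10 genes was near that of all names. Osmr was the higher one, from 11.5 to 17.4 RPKM, a fold of 1.52 that lies just over the threshold. At a mean of at least 1 RPKM, 1.34% of names were higher and 1.04% lower, and Osmr stood at place 157 of 12987. Socs1 was the lower one, from 0.428 to 0.159 RPKM, or 2.70-fold lower on an estimated 45.3 and 17.1 fragments. Socs3 had a fold of 1.39 and the other 7 genes had folds between 0.970 (Lifr) and 1.13 (Il6st). This comparison shares the G93A vehicle library with the vehicle comparison of genotypes, and the G93A + SD library with that under SD, so a high or low value in either enters both.

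Other genes of the pathway were also called in this comparison. Over all pathway lists together, 10 of 90 genes were higher and 5 lower, beside 8.71% and 7.31% over all names. The calls that follow are therefore given as values and not as a trait of the pathway. Of the 8 gp130 cytokines, 3 were higher, among them Ctf1 (1.64-fold, to 2.47 RPKM) and Clcf1 (1.57-fold, to 3.93 RPKM), and Il11 was lower. Of the 22 STAT3-induced genes, 4 were higher and 0 lower, which were Osmr itself, Serpina3n, from 473 to 772 RPKM, Vim, the intermediate filament gene vimentin, from 379 to 586 RPKM, and Fgl2, from 3.59 to 5.46 RPKM. Besides Socs1 and Il11, the lower calls were those of the gp130 co-receptor gene Il27ra, from 0.485 to 0.251 RPKM, and of Il4 and Il10, which were listed at 0 in G93A + SD. None of the Stat, Jak or phosphatase genes was called. The astrocyte markers had a median fold of 1.16 and the microglial markers 1.10 between these libraries, with 0 of 7 and 0 of 8 called. Markers of other cells did differ. The 3 Schwann cell markers, all called higher, summed to 0.374 and 1.41 RPKM in G93A vehicle and G93A + SD, and 4 of 6 T cell markers were higher, from a sum of 0.659 to 0.843 RPKM. The 5 monocyte and neutrophil markers went from 2.46 to 0.929 RPKM, with 4 lower and 1 higher. Motor neuron markers went from 60.3 to 44.2 RPKM, with Chat called lower, and endothelial markers from 44.9 to 36.8 RPKM, with Cldn5 called lower. The part of these markers in the differences of Osmr and Socs1 was not tested.

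In WT cord, SD left 9 of the 10 genes within 1.5-fold. The exception was Socs1, 1.85-fold lower at 0.141 RPKM against 0.261 RPKM. Over all names, 7.18% were at least 1.5-fold higher and 8.55% lower, and over those averaging at least 1 RPKM 0.909% and 1.36%. Stat3, Il6st, Il10ra, Il6ra, Osmr, Lifr and Jak2 had folds between 0.944 and 1.07, Socs3 had a fold of 0.773 and Il4ra one of 1.24.

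The profile of Stat3 over the 4 libraries was shared by genes of other kinds. Among 8846 other names averaging 5 RPKM or more, the smallest distances from Stat3 in the log2 ratios to WT vehicle were those of Actn1, Galnt6, Cmbl, Odc1 and Npc2, at 0.024 to 0.063. Odc1, which encodes ornithine decarboxylase of polyamine synthesis, measured 6.70 RPKM in WT vehicle, 6.82 RPKM in WT + SD, 13.0 RPKM in G93A vehicle and 14.2 RPKM in G93A + SD. The measure rests on 4 libraries.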

How the data were processed

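PolyA RNA of 4 lumbar cord libraries was sequenced by the authors with 53 bp reads. Their methods name STAR as the aligner, GRCm38 (mm10) as the genome and HTSeq with Ensembl genes as the counter, while the deposited rows are RefSeq transcripts. The RPKM values were taken as deposited by the authors, in 1 table of 23750 rows of RefSeq transcripts. The header names no unit, and RPKM was inferred because the products of value and length added up to similar totals across libraries. The 3 ratio columns of the authors were not used. The 10 genes and all lists were chosen with earlier results of these data known.

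Rows of a name were averaged, and a name was called at 1.5-fold or more, without a pseudocount or filter, over all 18674 names. No test was made, since each condition is 1 library. Fragments were estimated from the commonest low value times length in each library, with the GENCODE M21 transcript paired with each accession (97.0% of rows). The rows of Stat3 have near-equal values but GENCODE lengths of 2927 to 6042 bases, so these estimates are rough and no interval was derived. Named genes were the 10 genes, from each pathway list at most 4 other genes with the largest absolute log2 fold between the vehicle libraries and 2 between the G93A libraries (mean of at least 1 RPKM), the cytokines, the marker lists, and the 5 genes nearest to Stat3. Others were named after their values were seen, and some genes of the lists are not reported here by name. Alternatives were median-ratio scaling, a filter, pseudocounts, a 2-fold threshold, other treatments of rows and the other WT library. The calling code was tested on simulated data with known folds, which checks its arithmetic and not the spread between mice. Tables were computed with pandas 2.3.3 and numpy 2.4.6 under Python 3.11.15, and plots were drawn with matplotlib 3.10.9.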

Additional observations from a re-analysis of the deposited data

Results flagged for a closer look

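For 5 of the 10 genes the difference between SD and vehicle had opposite signs in the genotypes. With 1 library per condition this was not tested, and a sign by itself is met by small differences. The share of all names with opposite signs was not derived, so the count cannot be read as particular to these genes. On the log2 scale, Osmr was at 0.60 in G93A and -0.08 in WT, and Socs3 at 0.47 in G93A and -0.37 in WT. Il6st was at 0.18 and -0.01, Stat3 at 0.12 and -0.02, and Lifr at -0.04 and 0.09, in G93A and WT. Among these, Osmr in G93A was the 1 value that reached 1.5-fold.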

How the results depend on the processing

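Of 256 log2 folds of the 10 genes under the alternatives, 244 kept their call and 12 changed it. Among folds called in the main setting, 0 turned in direction. Median-ratio scaling changed no call of the 10 genes. In G93A vehicle against WT vehicle, Stat3 and Socs1 were lost at 2-fold, and Socs1 was lost with a pseudocount of 0.1 RPKM (1.46-fold) or 1 RPKM. Counting any row made 1 of the 10 genes lower in each genotype comparison, which was Lifr. With WT vehicle as the reference for G93A + SD, 1 gene was lower, Socs1. It turned from 1.13-fold, not called, to 0.608-fold, called lower. Il6st was lost at 2-fold in G93A + SD against WT + SD. Osmr in G93A + SD against G93A vehicle was lost at 2-fold and with a pseudocount of 1 RPKM (1.48-fold), which left 0 genes higher. Socs1 was lost there with the filter or a pseudocount of 1 RPKM, leaving 0 lower, and in WT also at 2-fold or with a pseudocount of 0.1 RPKM, leaving 0 lower.

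Counts over all names moved more, since low values carry many calls. In G93A vehicle against WT vehicle, the filter gave 1751 higher and 608 lower, a pseudocount of 0.1 RPKM 991 lower, a pseudocount of 1 RPKM 1552 higher and 355 lower, and 2-fold 2499 higher and 1022 lower. In G93A + SD against WT + SD these were 2113 and 1054, 1460 lower, 1950 and 782, and 1129 lower. In G93A + SD against G93A vehicle the filter gave 174 and 135, the pseudocounts 555 and 476, then 112 and 85, and 2-fold 1017 higher. In WT + SD against WT vehicle the filter gave 118 and 176 and the pseudocounts 420 and 522, then 50 and 83. No paired analysis was possible because each condition has 1 library, and no library could be left out. Socs1 and the low ligands are limited by depth.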

Other observations

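Other receptors that signal through Jak kinases moved in both directions. Of 20 listed, 19 were in the table, and in the vehicle pair 8 were at least 1.5-fold higher in G93A and 3 lower, with a median fold of 1.22. The receptors of colony-stimulating factors and interleukin-3, which act on myeloid cells, were among the higher ones. Csf3r went from 1.48 to 11.5 RPKM, Il3ra from 0.370 to 2.14 RPKM, and Csf2rb and Csf2rb2 from 0.360 to 2.85 RPKM and from 0.261 to 2.07 RPKM. The last 2 are close paralogs whose reads may be split between them. The lower ones were Lepr (leptin receptor), from 0.776 to 0.401 RPKM, Epor (erythropoietin receptor), from 0.635 to 0.376 RPKM, and Prlr (prolactin receptor), from 1.88 to 1.20 RPKM, named after their values were seen. Under SD, 11 were higher and 2 lower. Between the G93A libraries Ghr (growth hormone receptor) went from 3.94 to 5.57 RPKM, a fold of 1.41, and Csf2rb from 2.85 to 3.43 RPKM. In that comparison 3 were higher and 0 lower, beside 8.71% and 7.31% over all names. Among the 3 were Il2rb and Il7r, which were under 1 RPKM in both libraries.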
